A study of Mus musculus with 5 samples.

Results

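Nephron segments are laid down by transcription factors that act in nested domains of the forming tubule, and 8 such regulators are described here out of 32793 genes in the deposited tables. They were taken by name, not by their values, and all 8 had counts in every library and passed the filter on low counts. They are the pan-nephron regulators Pax2, Pax8 and Lhx1, the proximal tubule regulators Hnf4a and Hnf4g, the tubule precursor factor Osr2, and Pou3f3 and Sim2, placed with the loop of Henle and medial segments. Bulk RNA was sequenced from kidneys of E15.5 mouse embryos. The 2 NICD_mut libraries came from embryos with the genotype Six2TGC/+, RosaN1ICD∆PEST, in which Cre made in nephron progenitors switches on an activated Notch1 that lacks its PEST degradation domain. The 3 NICD_wt libraries came from Cre-negative littermates that carried RosaN1ICD∆PEST alone, so both groups share the Rosa26 allele and only NICD_mut carries the Cre driver. What the driver does and what activated Notch1 does cannot be told apart.

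Nephrons arise from Six2-expressing progenitors that aggregate into a vesicle, which elongates and acquires a proximal-to-distal axis. Pax2 and Pax8 are paired-domain factors of the early kidney lineages, and Lhx1 is a LIM homeodomain factor needed to pattern the nephron vesicle. Hnf4a is a nuclear receptor required for proximal tubule maturation in the mouse, and the POU-domain factor Pou3f3 is required there for the loop of Henle. Notch signalling works through a cleaved intracellular fragment of the receptor that binds DNA with the protein RBPJ.

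Libraries held 17361823 to 21356447 estimated counts. NICD_mut 1 stood apart by skeletal muscle transcripts, which summed to 3198 CPM (counts scaled to library size) over 8 markers there and to 14.0 CPM in NICD_mut 2. They summed to 135, 4.91 and 4.603 CPM in NICD_wt 1, 2 and 3. The kidney label was met in both groups by podocyte markers, at 1203 and 1714 CPM over 6 genes in NICD_mut and 696 to 766 CPM in NICD_wt. The progenitor marker Six2 was at 0.328 and 0.296 CPM in NICD_mut and at 134 to 141 CPM in NICD_wt. By the edgeR quasi-likelihood test at a Benjamini-Hochberg adjusted p under 0.05, 47.7% of 15885 tested genes passed, 23.0% higher and 24.8% lower in NICD_mut. The 2 groups did not overlap in CPM for 67.2% of tested genes. Nothing in the labels says that libraries came from separate animals, and p-values therefore cover only how far these samples vary, part of which may be technical.

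The promoters of 4 of the regulators are shown because Pax2 and Pax8 moved in opposite directions and Pou3f3 and Lhx1 fell, and because Notch acts at DNA through RBPJ. Each window runs from 250 bases before to 50 bases after a RefSeq start (GRCm38.p6, the assembly of mm10), 5′ to 3′ on the gene's strand, and capitals mark the RBPJ core TGGGAA found on either strand. The Pax2 window is chr19:44746351-44746650 on the plus strand, the most upstream of 3 RefSeq starts and upstream of the GENCODE gene start given below; it was chosen because it holds the motif. The Pax8 window is chr2:24475550-24475849 and the Lhx1 window chr11:84525485-84525784, both on the minus strand. The Pou3f3 window is chr1:42695518-42695817 on the plus strand.
Pax2: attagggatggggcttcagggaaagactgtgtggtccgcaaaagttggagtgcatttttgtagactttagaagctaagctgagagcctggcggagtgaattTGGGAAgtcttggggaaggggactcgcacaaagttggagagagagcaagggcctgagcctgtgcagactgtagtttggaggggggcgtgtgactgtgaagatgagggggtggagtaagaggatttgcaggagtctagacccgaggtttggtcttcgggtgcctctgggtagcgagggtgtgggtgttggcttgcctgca
Pax8: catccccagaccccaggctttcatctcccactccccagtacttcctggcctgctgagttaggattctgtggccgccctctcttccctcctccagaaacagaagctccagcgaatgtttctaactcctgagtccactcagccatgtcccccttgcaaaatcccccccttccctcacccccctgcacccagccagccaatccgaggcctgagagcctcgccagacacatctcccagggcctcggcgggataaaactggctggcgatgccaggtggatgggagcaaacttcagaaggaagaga
Lhx1: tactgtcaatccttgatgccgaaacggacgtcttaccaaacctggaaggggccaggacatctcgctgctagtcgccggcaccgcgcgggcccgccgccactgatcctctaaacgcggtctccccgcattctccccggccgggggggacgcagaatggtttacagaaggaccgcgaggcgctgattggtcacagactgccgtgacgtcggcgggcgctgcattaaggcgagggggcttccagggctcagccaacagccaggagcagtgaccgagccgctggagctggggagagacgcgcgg
Pou3f3: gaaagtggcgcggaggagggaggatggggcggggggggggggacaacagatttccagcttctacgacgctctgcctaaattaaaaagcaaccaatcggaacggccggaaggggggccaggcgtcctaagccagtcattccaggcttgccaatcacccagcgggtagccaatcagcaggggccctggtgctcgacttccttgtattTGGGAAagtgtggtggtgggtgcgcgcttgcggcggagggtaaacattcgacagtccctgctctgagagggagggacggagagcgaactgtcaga
Windows were found for 5 of the 8 regulators, 8 windows in all, counting 2 alternative starts of Hnf4a. The RBPJ core occurred once in the Pax2 window, starting 149 bases before the start site, and once in the Pou3f3 window, starting 45 bases before it. It was not in the other 6 windows, and it occurs in 25.6% of all 32851 promoter windows of that length, so 2 of 8 is near that share. The HNF4 motif CAAAGTCCA, searched on both strands, was in none of the 8 windows and in 0.475% of all windows. These matches describe letters and not binding.

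Of the 8 regulators, 3 rose, 4 fell and 1 did not pass in NICD_mut, and the groups did not overlap for 7 of 8. Among all tested genes 47.7% passed and 67.2% did not overlap, which are the shares these counts are read against. TPM, a unit scaled for gene length and depth, is used for levels, and log2 fold changes (NICD_mut minus NICD_wt) come from the edgeR fit to counts with standard errors (SE). In whole kidneys, fewer cells of a type and less RNA per cell cannot be told apart.

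**Figure D1:**
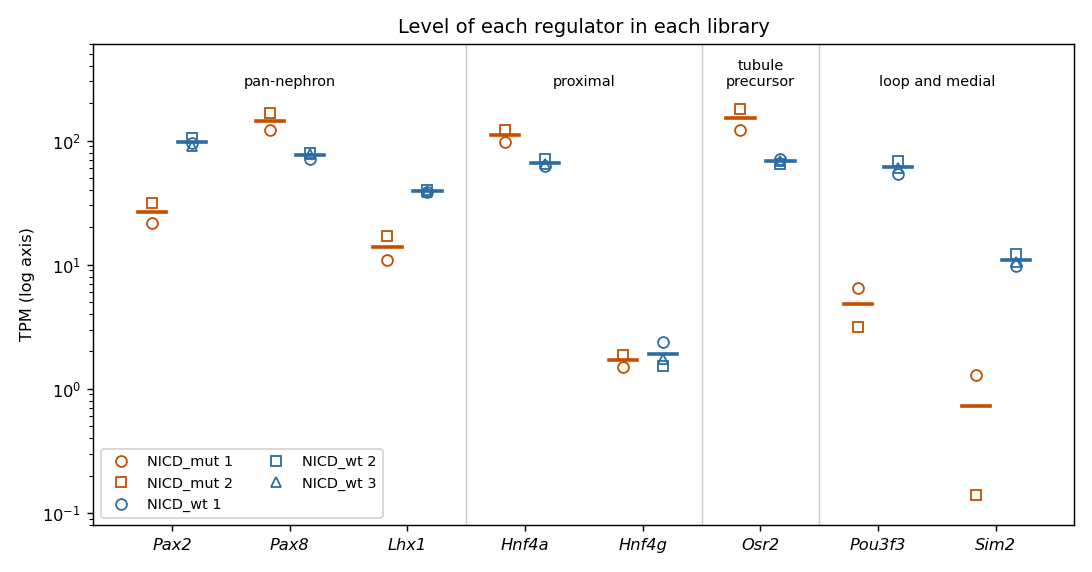
TPM on a log axis for each of the 8 regulators, with NICD_mut libraries (orange, n = 2) left of NICD_wt libraries (blue, n = 3). Symbols are libraries and bars are group means. Pax8, Hnf4a and Osr2 lie above NICD_wt in both NICD_mut libraries, Pax2, Lhx1, Pou3f3 and Sim2 lie below, and Hnf4g overlaps.

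The pan-nephron regulators split, with Pax8 higher and Pax2 and Lhx1 lower in NICD_mut kidneys. Pax2 (chromosome 19, mm10, 44756045 to 44837871, plus strand) was at 21.8 and 31.5 TPM in the NICD_mut libraries, against 95.1, 104 and 90.4 TPM in NICD_wt. Both NICD_mut libraries were far below every NICD_wt library. Pax2 fell by 1.97 log2 (SE 0.20; edgeR quasi-likelihood test, adjusted p = 0.00138 by Benjamini-Hochberg), to 25.5% of the NICD_wt mean in CPM. Only 1.77% of tested genes had a lower fold change.

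Pax8 (chromosome 2, 24420560 to 24475599, minus strand) was at 122 and 166 TPM in NICD_mut, against 70.6, 79.2 and 77.9 TPM in NICD_wt. The lower NICD_mut library was above the highest NICD_wt library. Pax8 rose by 0.80 log2 (SE 0.15; edgeR adjusted p = 0.00716), which is 1.75-fold. The change was 0.52 log2 without NICD_mut 2 and 1.03 without NICD_mut 1, and it passed in both.

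Lhx1 (chromosome 11, 84518284 to 84525535, minus strand) was at 10.9 and 17.1 TPM in NICD_mut, against 38.4, 40.3 and 38.4 TPM in NICD_wt. The NICD_wt libraries lay within 1.05-fold of one another in CPM, and both NICD_mut libraries were below them. Lhx1 fell by 1.60 log2 (SE 0.21; edgeR adjusted p = 0.00187).

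The 2 Pax genes therefore exchanged their order within the kidney. Pax2 made up 15.2 and 16.0% of the summed Pax2 and Pax8 TPM in NICD_mut, against 57.4, 56.9 and 53.7% in NICD_wt. Their sum was 144 and 197 TPM in NICD_mut and 166, 183 and 168 TPM in NICD_wt, so the sums of the groups overlapped. The ratio of Pax8 to Pax2 TPM was 5.59 and 5.26 in NICD_mut and 0.743, 0.759 and 0.861 in NICD_wt, a difference of 2.79 on the log2 scale. The ratio of Pax2 to Lhx1 moved much less, at 2 and 1.85 in NICD_mut against 2.47, 2.59 and 2.35 in NICD_wt, or -0.36 log2. Transcripts of Pax2 and Pax8 in GENCODE shared 3 exact runs of 25 bases and 0 of 50 bases. Those of Hnf4a and Hnf4g shared 0 of either length. How the estimation divided reads between the paralogs was not tested.

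Of the proximal regulators, Hnf4a rose and its relative Hnf4g did not pass. Hnf4a (chromosome 2, 163506808 to 163572910, plus strand) was at 98.2 and 123 TPM in NICD_mut, against 62.6, 71.6 and 64.4 TPM in NICD_wt. Both NICD_mut libraries were above all NICD_wt libraries. Hnf4a rose by 0.62 log2 (SE 0.12; edgeR adjusted p = 0.00618), which is 1.54-fold, and by 0.40 log2 without NICD_mut 2. The antisense transcript Hnf4aos overlaps it and had 1 and 0 counts in NICD_mut and 1, 15 and 1 in NICD_wt, against 2992 or more for Hnf4a in every library. The count per gene does not separate the 2 Hnf4a promoters.

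Hnf4g (chromosome 3, 3508030 to 3658052, plus strand), a second nuclear receptor of the same family, was at 1.5 and 1.88 TPM in NICD_mut, against 2.39, 1.54 and 1.74 TPM in NICD_wt. The groups overlapped, and NICD_wt itself varied 1.55-fold in CPM. Its log2 fold change was -0.28 (SE 0.28; edgeR adjusted p = 0.433), and 0.10 when NICD_mut 1 and NICD_wt 1 were both left out. It had 73 to 121 counts per library, the fewest of the 8 in NICD_wt. The ratio of Hnf4a to Hnf4g TPM was 65.5 and 65.3 in NICD_mut and 26.2, 46.5 and 37.0 in NICD_wt, a log2 difference of 0.88.

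Osr2 (chromosome 15, 35296098 to 35303305, plus strand), an odd-skipped zinc finger factor expressed in forming nephrons, rose in NICD_mut. It was at 122 and 180 TPM in NICD_mut, against 71.1, 64.4 and 68.3 TPM in NICD_wt. No NICD_mut value came near the NICD_wt range. The change was 1.03 log2 (SE 0.20; edgeR adjusted p = 0.0127), a 2.04-fold difference, exceeded by 10.7% of tested genes. It was 0.68 without NICD_mut 2 and 1.30 without NICD_mut 1, and 0.98 without NICD_wt 2, where it no longer passed (edgeR adjusted p = 0.052).

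Pou3f3 and Sim2 showed the largest changes of the 8. Pou3f3 (chromosome 1, 42695768 to 42703176, plus strand) was at 6.51 and 3.15 TPM in NICD_mut, against 54.1, 67.9 and 60.2 TPM in NICD_wt. Every NICD_mut library was several-fold below every NICD_wt library. Pou3f3 fell by 3.78 log2 (SE 0.34; edgeR adjusted p = 0.0022), to 7.24% of the NICD_wt mean in CPM, and only 0.611% of tested genes had a lower fold change.

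Sim2 (chromosome 16, 94084931 to 94127032, plus strand), a basic helix-loop-helix PAS factor related to fly single-minded, was counted 55 and 6 times in NICD_mut libraries, against 430, 583 and 404 times in NICD_wt libraries. That is 1.30 and 0.14 TPM in NICD_mut and 9.78, 12.3 and 10.5 TPM in NICD_wt. Both NICD_mut libraries were low, but NICD_mut 1 was 8.72-fold above NICD_mut 2 in CPM. Sim2 fell by 4.05 log2 (SE 0.86; edgeR adjusted p = 0.0292). The value was -6.32 without NICD_mut 1 and -3.23 without NICD_mut 2. Without NICD_wt 1, 2 or 3 it stayed at -4.12, -3.95 and -4.08 but did not pass (edgeR adjusted p = 0.0841, 0.0925 and 0.0956). By limma on log2(TPM + 1), which understates changes of low genes, it was -2.87.

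**Figure D2:**
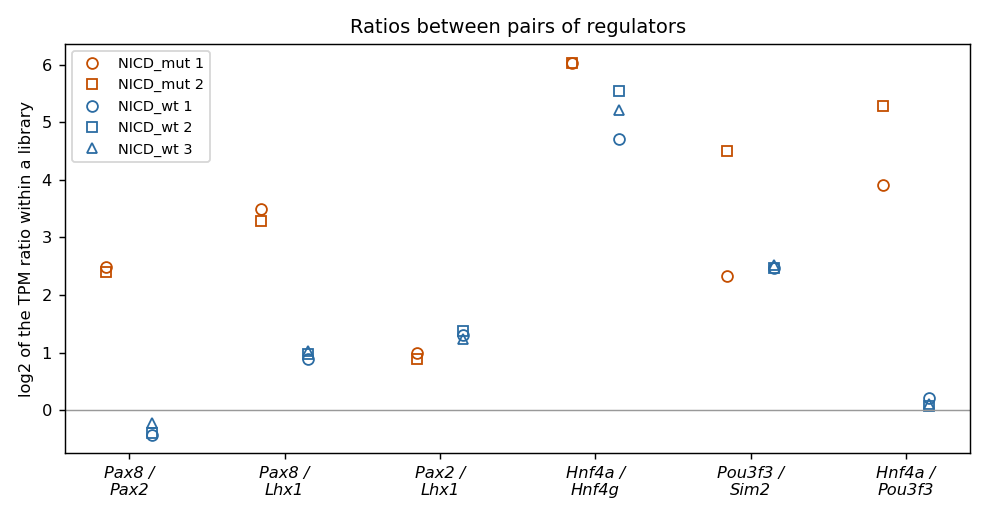
Log2 of the TPM ratio between 2 regulators within each library, for 6 pairs, with NICD_mut (orange, n = 2) left of NICD_wt (blue, n = 3) and 1 symbol per library. Pax8 to Pax2 and Hnf4a to Pou3f3 differ between the groups by 2.79 and 4.47, while Pou3f3 to Sim2 is split by the NICD_mut libraries, at ratios of 5.01 and 22.5.

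Hnf4a and Pou3f3 were paired as a proximal and a loop regulator. They stood at similar TPM in NICD_wt, with ratios of 1.16, 1.05 and 1.07, against 15.1 and 39.0 in NICD_mut. That is a log2 difference of 4.47. The likeness in NICD_wt depends on the length used. Per kilobase of GENCODE exons Hnf4a was at 36.8 and Pou3f3 at 14.9 CPM per kilobase there. Pou3f3 to Sim2 was 5.01 and 22.5 in NICD_mut, against 5.53, 5.52 and 5.72 in NICD_wt, so the steady ratio of the NICD_wt libraries was met by NICD_mut 1 and not by NICD_mut 2. With 2 libraries against 3 there are 10 ways to assign the labels, so the smallest 2-sided exact permutation p is 0.1 and no pair can pass 0.05. Of 6 pairs, 4 reached that smallest p, Hnf4a to Hnf4g gave an exact p = 0.2 and Pou3f3 to Sim2 an exact p = 0.4 (0.15, 0.24 and 0.4 after Benjamini-Hochberg adjustment over the 6 exact permutation tests).

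The order of levels changed accordingly. In NICD_mut the means were 151 ± 40.6 TPM for Osr2, 144 ± 31.0 for Pax8, 111 ± 17.4 for Hnf4a, 26.7 ± 6.87 for Pax2, 14.0 ± 4.37 for Lhx1, 4.83 ± 2.38 for Pou3f3, 1.69 ± 0.27 for Hnf4g and 0.72 ± 0.82 for Sim2 (SD, n = 2). The top 3 overlapped with their neighbours in this order, and the lower ranks did not. In NICD_wt the means were 96.6 ± 7.06 TPM for Pax2, 75.9 ± 4.62 for Pax8, 67.9 ± 3.398 for Osr2, 66.2 ± 4.78 for Hnf4a, 60.7 ± 6.93 for Pou3f3, 39.1 ± 1.09 for Lhx1, 10.9 ± 1.30 for Sim2 and 1.89 ± 0.44 for Hnf4g (SD, n = 3). There, Pax8, Osr2 and Hnf4a each overlapped with the next in order, so these neighbours did not differ beyond their spread, and Pou3f3 did not overlap with Lhx1. Pax2 was the highest of the 8 in NICD_wt and the fourth in NICD_mut. The order between genes depends on the length used. Per kilobase of GENCODE exons Hnf4a came highest in both groups, at 56.3 in NICD_mut and 36.8 in NICD_wt CPM per kilobase. By that measure Lhx1 came above Pou3f3 in NICD_wt, at 15.5 and 14.9 CPM per kilobase.

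The 2 NICD_mut libraries did not differ from each other in 1 direction. Pax2, Pax8, Lhx1, Hnf4a, Hnf4g and Osr2 were all higher in NICD_mut 2 than in NICD_mut 1, by 1.31-fold to 1.64-fold in CPM. Pou3f3 and Sim2 were lower in NICD_mut 2, at 0.505 and 0.115 times NICD_mut 1. Over all tested genes 45.2% were lower in NICD_mut 2. The loop of Henle genes described below were lower in NICD_mut 2 in 10 of 11 cases. NICD_mut 1 is the library with muscle transcripts, and Col1a1, a collagen gene of stroma, was at 4562 CPM in it and 1815 CPM in NICD_mut 2. The 8 stroma markers with Col1a1 summed to 5878 CPM in NICD_mut 1 and 3119 CPM in NICD_mut 2, and 4 of them were lower in NICD_mut 2. The part of these in the differences between the libraries was not tested.

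**Figure D3:**
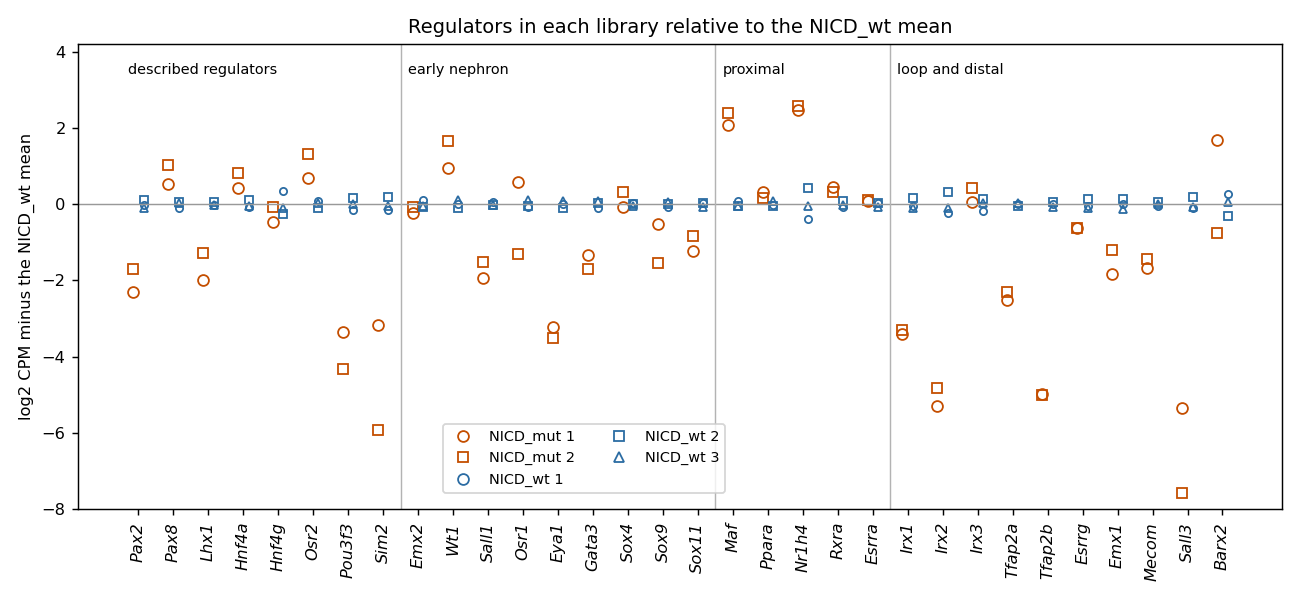
Log2 CPM of each library minus the NICD_wt mean for the 8 described regulators and for early nephron, proximal, and loop and distal regulators reported here, with NICD_mut (orange, n = 2) left of NICD_wt (blue, n = 3). A library with 0 counts is drawn at a value set by the prior count of the fit. Loop and distal regulators lie mostly below 0 in NICD_mut and proximal ones at or above it, while early nephron regulators go both ways.

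Other regulators of the early nephron went both ways. Of 10 tested, 5 fell, 1 rose and 4 did not pass. For this and the lists that follow, 24.8% of all tested genes fell and 23.0% rose. The median log2 fold change of the list was -0.68, where the median of all tested genes was 0.01. Eya1, a cofactor of Six2, fell by 3.38 log2 (SE 0.12), Sall1, a zinc finger factor of the progenitors, by 1.70 (SE 0.13) and Gata3, a ureteric and distal factor, by 1.51 (SE 0.12). Wt1, which podocytes retain at high level, rose by 1.34 (SE 0.24) but did not pass without NICD_wt 2. Without NICD_mut 1 Sox4 rose as well. Osr1 was at 32.0 and 8.68 CPM in NICD_mut, on either side of the 20.4 to 23.3 CPM of NICD_wt. It rose without NICD_mut 2 and fell without NICD_mut 1.

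Proximal regulators other than the Hnf4 genes were mostly higher. Of 7 tested, 4 rose, 1 fell and 2 did not pass, at a median of 0.39 log2. Nr1h4, the bile acid receptor, was at 12.3 and 13.3 CPM in NICD_mut, against 1.61, 2.90 and 2.07 CPM in NICD_wt, a rise of 2.53 log2 (SE 0.25). The basic leucine zipper factor Maf rose by 2.24 (SE 0.09) and Rxra, a partner of many nuclear receptors, by 0.39 (SE 0.07). Ppara was at 0.25 (SE 0.15) and Esrra at 0.09 (SE 0.08).

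Genes of the mature proximal tubule, several of which depend on Hnf4a in the mouse, followed the same direction with exceptions. Of 22 tested out of 23, 13 rose, 3 fell and 6 did not pass, at a median of 1.13 log2. The bicarbonate cotransporter Slc4a4 rose by 1.89 log2 (SE 0.08), Gatm, an enzyme of creatine synthesis, by 3.41 (SE 0.09) and Ass1, an enzyme of the urea cycle, by 1.23 (SE 0.07). The endocytic receptor Cubn changed by -0.87 (SE 0.24) and the gluconeogenic enzyme Fbp1 by -0.57 (SE 0.19). The number that fell was 1 when NICD_mut 1, NICD_mut 2, NICD_wt 2 or NICD_wt 3 was left out, and 0 by limma on log2(TPM + 1).

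Distal tubule and loop regulators moved with Pou3f3. Of 10 tested out of 11, 8 fell, 0 rose and 2 did not pass by the edgeR quasi-likelihood test, at a median of -2.01 log2. At an unadjusted p under 0.05, and by the DESeq2 Wald test, 0 rose. Tfap2b fell by 5.07 log2 (SE 0.12), Irx2 by 5.36 (SE 0.29), Irx1 by 3.38 (SE 0.13) and Mecom by 1.55 (SE 0.08). Sall3 was at 0.375 and 0 CPM in NICD_mut, against 17.7, 21.9 and 18.01 CPM in NICD_wt. Irx3, unlike the other Iroquois genes of the list, was at 0.24 (SE 0.13) and did not pass, though without NICD_mut 1 it rose. Barx2 was at 1.78 and 0.247 CPM in NICD_mut, on either side of the 0.374 to 0.604 CPM of NICD_wt. Its rise without NICD_mut 2 rests on NICD_mut 1 alone.

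Loop of Henle genes, several of which need Pou3f3 in the mouse, were mostly lower in NICD_mut. Of 11 tested, 8 fell, 1 rose and 2 did not pass, at a median of -4.85 log2. Bsnd, which encodes barttin, had 2 counts over the NICD_mut libraries and 1099 over the NICD_wt libraries. Its CPM in NICD_wt was 390-fold that in NICD_mut, with a 95% exact interval of 108-fold to 3220-fold that covers counting error only. Umod, which encodes uromodulin, changed by -4.85 log2 (SE 0.39). Ptger3, a prostaglandin receptor, rose by 1.59 (SE 0.25), and without NICD_mut 2 the creatine kinase Ckb rose too.

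Signals and adhesion genes of the nascent nephron, where Lhx1 and the Pax genes act, were divided. Of 10 tested, 4 fell, 2 rose and 4 did not pass, at a median of -0.19 log2, where 47.7% of all tested genes passed. The ligands Fgf8, Dll1 and Bmp2 fell by 5.99 (SE 0.43), 1.96 (SE 0.11) and 2.53 log2 (SE 0.16). The cadherins Cdh6 and Cdh4 rose by 1.34 (SE 0.09) and 0.54 (SE 0.13), and Cdh4 did not pass without NICD_wt 3. Of 5 genes reported to depend on Pax factors, 3 fell, 1 rose and 1 did not pass, at a median of -1.51. Gdnf, the ligand that drives ureteric branching, fell by 4.69 log2 (SE 0.17), its receptor Ret by 4.12 (SE 0.32) and Gata3 by 1.51 (SE 0.12). Cdh16, a kidney cadherin, rose by 0.55 (SE 0.09), and Wnt4 was at -0.22 (SE 0.10).

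Pax2 and Lhx1 are also expressed in the ureteric epithelium, which does not come from the Six2 progenitors, and Pax2 in the progenitors themselves. Of 9 ureteric markers 8 fell and 1 rose, summing to 398 and 327 CPM in NICD_mut and 618 to 649 CPM in NICD_wt. Most of the NICD_mut sum was Krt8, the 1 that rose, at 316 and 250 CPM in NICD_mut and 161 to 184 CPM in NICD_wt. Aqp2 had 0 counts in NICD_mut 2. Of 7 progenitor markers 6 fell and 1 rose, summing to 57.9 and 49.8 CPM in NICD_mut and 592 to 613 CPM in NICD_wt. Their part in the lower Pax2 and Lhx1 was not tested. Hnf4a is also a liver and gut gene. Liver markers summed to 138 and 140 CPM in NICD_mut and 57.1 to 95.2 CPM in NICD_wt, with Fgb and Serpina1a the 2 of 6 tested that rose, and 5 intestine markers to 3.33 and 2.47 CPM in NICD_mut and 1.15 to 2.01 CPM in NICD_wt. Of 2 intestine markers tested 1 rose, Lgals4, by 1.37 log2 (SE 0.42). It was at 2.72 and 1.58 CPM in NICD_mut and 0.691 to 0.936 CPM in NICD_wt. Fabp2 had no count in any library, and Alb, the defining liver gene, was at 0.02 log2 (SE 0.98). Hnf4a itself was at 236 and 309 CPM in NICD_mut and 167 to 192 CPM in NICD_wt, and the part of liver or gut RNA in its rise was not tested.

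Relatives of the 8 regulators were mostly too low to test. Of 19, 4 were tested, 1 fell and 3 did not pass, so this says little about the families. Sim1, the paralog of Sim2, was at 1.78 and 0.641 CPM in NICD_mut, against 29.0, 36.02 and 33.2 CPM in NICD_wt, and fell by 4.74 log2 (SE 0.38). Osr1, the paralog of Osr2, was at 32.0 and 8.68 CPM in NICD_mut, on either side of the 20.4 to 23.3 CPM of NICD_wt. Without NICD_mut 1 Osr1 and Pou3f1 fell, and without NICD_mut 2 Osr1 rose. In that fit Pou3f4, Lhx9 and Pax7 also entered the test, through NICD_mut 1 alone, so their calls there are not read as rises. Cofactors went both ways. Of 9 tested out of 10, 3 fell, 2 rose and 4 did not pass, where 47.7% of all tested genes passed, and the median was 0.06 log2. The nuclear receptor coactivator Ppargc1a, which works with Hnf4a, fell by 0.72 log2 (SE 0.12), the Pax2 partner Paxip1 by 0.46 (SE 0.08) and the LIM complex gene Ssbp3 by 0.29 (SE 0.06). Arnt, a dimer partner of PAS factors, rose by 0.36 (SE 0.07). Ldb2, a LIM-domain binding protein, rose by 0.20 (SE 0.07) but did not pass without NICD_mut 2 or any NICD_wt library, nor with no filter on low counts. The number of cofactors that rose was 4 without NICD_mut 1, with Ldb1 and Arnt2 added.

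A noncoding neighbour fell with Pou3f3. Pantr1 starts 925 bases from Pou3f3 on the opposite strand (chromosome 1, 42590782 to 42694842) and was counted 2 times and 1 time in NICD_mut libraries, against 116, 97 and 95 times in NICD_wt libraries. Its CPM in NICD_wt was 72.9-fold that in NICD_mut (95% exact interval 24.7-fold to 355-fold, counting error only). Lhx1os, which starts 124 bases from Lhx1, was at 0.750 and 2.32 CPM in NICD_mut, against 4.08, 2.67 and 2.76 CPM in NICD_wt. Its log2 fold change of -1.05 (SE 0.48) did not pass (edgeR adjusted p = 0.106), but it fell without NICD_mut 2. The strand setting of the counting is not given in the sources used here, so reads of a gene and of an overlapping transcript on the other strand cannot be told apart.

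Among 140 tested genes of the lists used here, those nearest in pattern to each regulator were found by the root mean square difference of log2 CPM over the 5 libraries, after centring on the NICD_wt mean. Pax2 was nearest to Sall1 (0.199) and Wnt11 (0.229). Lhx1 was nearest to Emx1 (0.106) and Sall1 (0.111), and only 1 of all tested genes was closer than Emx1. Pax8 was nearest to Podxl (0.0772) and Dpf3 (0.113), and the second nearest to Osr2 was Nphs1 (0.145). Podxl and Nphs1 are podocyte genes, and podocyte markers were among the lists searched. Of all tested genes, 14 were closer to Pax8 than Podxl and 86 closer than Dpf3, and 69 were closer to Osr2 than Nphs1. Hnf4a was nearest to Cdh4 (0.0744) and Cdh16 (0.0884), with 42 tested genes closer than Cdh4. Pou3f3 was nearest to Ret (0.249) and Spock2 (0.263), and Sim2 to Sim1 (0.475) and Cited1 (0.506), with 3 tested genes closer than Ret and 1 closer than Sim1. Hnf4g was nearest to Emx2 (0.17) and Wnt4 (0.198), with 132 tested genes closer than Emx2.

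**Figure D4:**
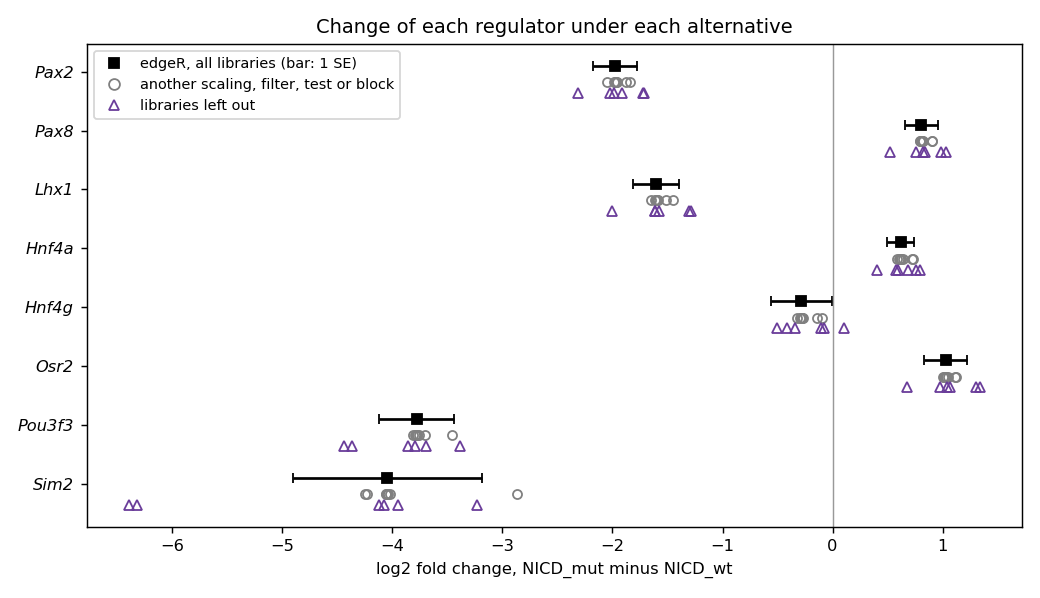
Log2 fold change (NICD_mut minus NICD_wt) of each regulator in the edgeR fit to all 5 libraries (black squares, bar 1 SE), under other scalings, filters, tests or the replicate block (grey circles) and with libraries left out (purple triangles). Hnf4g alone crosses 0, reaching 0.10, and Sim2 has the widest range, -6.39 to -2.87.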

How the data were processed

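Bulk RNA-seq was analysed for 2 NICD_mut and 3 NICD_wt libraries of whole kidneys. The authors deposited estimated counts per gene symbol, as whole numbers, and TPM for the same libraries. RSEM, Bowtie2 and mm10 are named in the submitters' processing notes; their versions, the annotation and strandedness were not given in the sources used here. Columns were matched to samples by title. Some genes that count in the lists are not reported here by name.

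Counts were scaled with TMM and low genes were removed by filterByExpr (at least 10 counts, total 15), leaving 15885 of 32793 genes. Quasi-likelihood fits in edgeR 4.0.16 (R 4.3.3, robust) compared NICD_mut with NICD_wt without covariates, with Benjamini-Hochberg adjustment over all tested genes and a threshold of 0.05. Each SE is the log2 fold change over the square root of F. The test was checked on simulated counts, where it recovered 46.3% of 1.5-fold, 67.2% of 2-fold and 87.9% of 4-fold changes. A gene that did not pass may therefore still have changed. Pair ratios were compared by exact permutation over libraries. The regulators, the lists, the tests, the alternatives and the naming rule (from each list the 3 smallest adjusted p and up to 2 against its direction; called relatives, partners and neighbours; nearest patterns) were chosen with earlier results of these data known; Fgf8, Wnt4, Osr1, Lhx1os, the marker genes and the genes gained beside a left-out library were added after their values were seen.

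Other settings were scaling by library size alone or by DESeq2 size factors, no filter, at least 50 counts in 2 libraries, DESeq2 1.42.0, limma 3.58.1 on log2 TPM with pseudocounts of 1 and 0.1, a replicate block, each library left out, and NICD_mut 1 with NICD_wt 1 left out. Coordinates are 1-based from GENCODE, and promoters are from RefSeq. Figures were drawn with matplotlib 3.10.9.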

Additional observations from a re-analysis of the deposited data

How the results depend on the processing

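Across 14 alternatives Pax2, Pax8, Lhx1 and Hnf4a kept their direction and passed in every one. The total of genes that passed stayed within 1.5 times of 7583, at 5898 to 8050 with 1 library left out. With replicate number as a block, Osr2 (1.01 log2), Pou3f3 (-3.81) and Sim2 (-4.25) did not pass and the total was 5535. The block changed no other call among the 8 regulators, and it left 1 proximal tubule gene lower rather than 3 and 1 cofactor higher rather than 2. The groups share only 2 replicate numbers, and deviations of same-numbered libraries correlated at 0.34 and 0.149, so the numbers are not taken to pair the samples, and the cause of the lost calls was not tested. Hnf4g turned to 0.10 when NICD_mut 1 and NICD_wt 1 were both left out and passed in no alternative. With 1 library left out the log2 fold changes ran from -2.31 to -1.71 for Pax2, 0.52 to 1.03 for Pax8, -2.01 to -1.29 for Lhx1, 0.40 to 0.80 for Hnf4a, -0.50 to -0.08 for Hnf4g, 0.68 to 1.30 for Osr2, -4.36 to -3.39 for Pou3f3 and -6.32 to -3.23 for Sim2; a lone NICD_mut library is assumed to vary like NICD_wt. By limma on log2(TPM + 1), 4448 genes were higher and 2803 lower, against 3649 and 3934 by edgeR, and the median of all tested genes was 0.11 rather than 0.01. Relative to that shift each called regulator kept its direction. Of 280 recomputed list counts, 253 stayed within 1.5 times. Sim2 had 55 counts in NICD_mut 1 and 6 in NICD_mut 2. What this spread and the low counts contribute to its lost calls was not tested.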

Other observations

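The relatives Pax7, Lhx9 and Pou3f4 had their highest counts in NICD_mut 1, the library with most muscle transcripts. Pax7, a marker of muscle stem cells, had 95 and 0 counts in NICD_mut and 9, 1 and 0 in NICD_wt. Lhx9 had 31 and 3 counts in NICD_mut and 2, 6 and 2 in NICD_wt, and Pou3f4 had 30 and 3 counts in NICD_mut and 9, 7 and 3 in NICD_wt. None of the 3 passed the filter on low counts in the fit to all 5 libraries. Glial and neuronal markers, 6 in all, summed to 21.2 and 11.2 CPM in NICD_mut and 5.29 to 7.39 CPM in NICD_wt. The 6 adrenal and sympathetic markers summed to 9.94 and 6.41 CPM in NICD_mut and 3.68 to 5.61 CPM in NICD_wt. Of 8 muscle markers 0 passed by the edgeR quasi-likelihood test, 0 at an unadjusted p under 0.05, and 3 rose by the DESeq2 Wald test. Of 8 stroma markers 3 rose, 2 fell and 3 did not pass, where 47.7% of all tested genes passed.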
